A study of Sus scrofa with 60 samples.

Results

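CYP2 enzymes are the largest family of drug-metabolizing cytochromes P450 in the liver, and 9 of their pig genes are described here across diet and bile duct ligation (BDL). The genes were chosen by name, as CYP2E1, CYP2A19, CYP2B22, CYP2D25, CYP2C32, CYP2C33, CYP2C36, CYP2C42, and CYP2C49, and make up 9 of the 30335 genes with a RefSeq identifier in the deposited count table. CYP2 enzymes are heme proteins of the endoplasmic reticulum that oxidize drugs, solvents, steroids, and fatty acids with electrons passed on by cytochrome P450 oxidoreductase. In liver they are made chiefly by hepatocytes, several of them mostly around the central vein, and nuclear receptors that sense bile acids and foreign compounds control many of their genes.

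The study measured liver mRNA by sequencing in newborn pigs of both sexes, delivered by caesarean section from sows of mixed Landrace and Hampshire background. On day 1 of life the pigs had either sham surgery or BDL, which blocks bile flow, and were given a jugular catheter. They then received 1 of 3 diets until liver was collected after 14 days. By the study's methods all pigs first received parenteral nutrition, and ENT pigs were moved stepwise to full feeds of a milk replacer formula through an orogastric tube, so the enteral groups also had some parenteral exposure. Of the others, SLE pigs stayed on parenteral nutrition with a soy lipid emulsion (Intralipid), and MLE pigs on parenteral nutrition with a mixed lipid emulsion (SMOFlipid). Sham groups held 12 ENT, 10 SLE, and 9 MLE pigs, and BDL groups held 10 ENT, 11 SLE, and 8 MLE pigs. A library held between 14469788 and 21374161 counted reads. Values are CPM, counts scaled to a common library size by TMM, and are given as mean ± SD over pigs.

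The libraries of ENT-sham replicate 2 and ENT-BDL replicate 1 were nearly the same, with a chi-square of 1.91 per degree of freedom over their gene counts. The next closest of the 1770 pairs of libraries stood at 16.1. These labels put the close libraries in opposite surgery groups, so each change of a member called against an ENT group is given with and without both. A single pig identifier stands on both SLE-sham replicate 9 and replicate 10, and their libraries (chi-square per degree of freedom 34.2) were the 51st closest pair, where the median pair stood at 87.1. Both were kept, so 1 pig may be present more than once among the 10 of SLE-sham. The labels also hold an identifier number with 8 values that recurs across groups, whose meaning they do not state. The values were spread unevenly over the groups. Most ENT pigs carried a value that no MLE pig carried, and the most frequent value in SLE-BDL was absent from SLE-sham. Most ENT-sham pigs also carried a value absent from SLE-sham. Many SLE-sham and most SLE-BDL pigs carried one absent from the MLE group of the same surgery. Comparisons of MLE with ENT or SLE, of SLE-sham with ENT-sham, and of BDL with sham on SLE thus cannot fully separate the number from diet or surgery. Few ENT-sham pigs shared a value with MLE-sham pigs, which limits a block on the number there. Residual expression correlated at a median of 0.129 in 177 pairs of libraries with the same number, against -0.0186 in 1318 pairs with different numbers, so each called change of a member is also given with this number as a block.

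All 9 genes passed the filter on low counts, so none was lost to it. The most abundant hepatocyte marker was ALB, the albumin gene, at a mean of 69395 CPM in ENT-sham and 32068 CPM in MLE-BDL. None of the 14 hepatocyte markers was at 3 counts or fewer in all pigs, so the tissue carried its defining markers. In bulk liver, fewer cells of a type and less RNA per cell cannot be told apart.

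To compare levels between genes, CPM was divided by the gene length of the deposited table in kilobases. On this scale the 9 genes together stood at 1269 ± 351.2 CPM per kb in ENT-sham, 612 ± 204 in SLE-sham, and 516 ± 125 in MLE-sham. After BDL the sum was 761 ± 287 CPM per kb in ENT, 821 ± 384 in SLE, and 442 ± 80.7 in MLE. CYP2E1 led in ENT-sham at 588 CPM per kb, ahead of CYP2C49 at 316, CYP2D25 at 192, and CYP2C33 at 119 CPM per kb. Far below came CYP2C42 at 20.8, CYP2C32 at 15.9, CYP2A19 at 9.24, CYP2C36 at 8.79, and CYP2B22 at 0.374 CPM per kb. In each of the other 5 groups CYP2D25 had the highest mean level instead. The leading transcript of the 9 genes thus changed away from the enterally fed sham pigs.

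The spread over pigs blurred much of this order. CYP2E1 was the top gene per kilobase in 9 of 12 ENT-sham pigs and in none of the other 5 groups' pigs, whereas CYP2D25 was the top gene in 6 of 10 SLE-sham and 5 of 9 MLE-sham pigs and in 6 of 10 ENT-BDL, 9 of 11 SLE-BDL, and 8 of 8 MLE-BDL pigs. Of the 8 steps between neighbours in the order of means, every pig kept the order at 1 step in ENT-sham, 1 in SLE-sham, and 2 in MLE-sham, and at 1 in ENT-BDL, 0 in SLE-BDL, and 4 in MLE-BDL. At the remaining steps at least 1 pig reversed the order, and the difference between neighbours was not tested. CYP2E1 supplied 44.1 ± 11.8% of the summed level in ENT-sham but 3.16% in MLE-BDL, while CYP2D25 went from 15.2% in ENT-sham to 58.4 ± 18.9% in SLE-BDL.

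**Figure D1:**
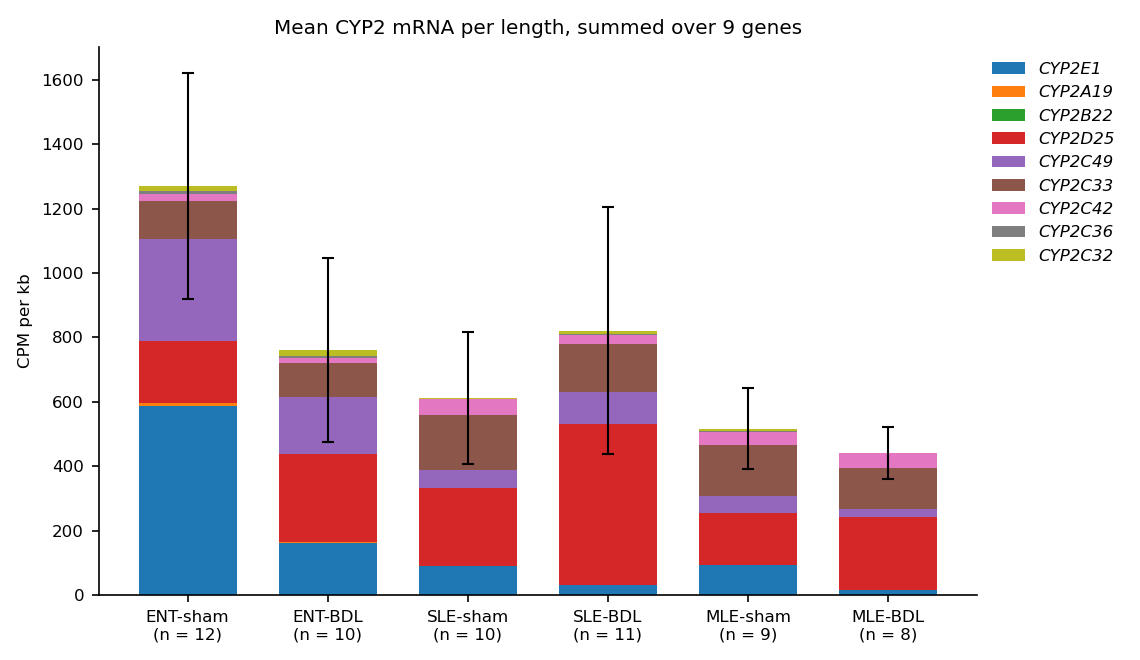
Mean level of the 9 CYP2 genes in CPM per kb (vertical axis) stacked for each of the 6 groups (horizontal axis); error bars are the SD of the sum over pigs. CYP2E1 makes up the largest part in ENT-sham (588 CPM per kb) and CYP2D25 in each other group.

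Expression was compared with edgeR, with log2 fold changes given ± SE, and a gene was called when its adjusted p over 16210 tested genes was under 0.05 and it differed more than 2-fold. The shares of all tested genes called are those of this fit, also where a count with the identifier block stands beside them. Most of the 9 genes differed between sham pigs on parenteral and on enteral feeding. Between SLE-sham and ENT-sham, 7 of the 9 genes were called (5 of 9 with the identifier block), 6 lower and 1 higher in SLE-sham, where 5.24% of all tested genes were called. Between MLE-sham and ENT-sham, 5 of 9 were called, all lower, against a background of 3.71%. These comparisons share the ENT-sham pigs, and the median log2 fold change of the members was -2.52 for SLE-sham and -1.41 for MLE-sham, beside -0.01 over all tested genes in both. Between the sham groups on the 2 lipid emulsions, 0 of 9 were called by edgeR (background 0.463%), with 2 at an unadjusted p under 0.05 and 0 by DESeq2, and the members' median was 0.01 beside 0.00 over all genes.

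Diet moved several members in BDL pigs too. Between SLE-BDL and ENT-BDL, 3 of 9 genes were called (4 of 9 with the identifier block), all lower, against 3.13% of all tested genes. Between MLE-BDL and ENT-BDL, 6 of 9 were called (4 of 9 with the identifier block), 5 lower and 1 higher, against 3.18%. The ENT-BDL pigs are shared by these comparisons, and the members' medians were -0.85 and -2.97 beside 0.00 and 0.01 over all genes. Between MLE-BDL and SLE-BDL, 2 of 9 were called, both lower in MLE-BDL, where the background was 0.37%, and the median was -1.06 beside 0.00. With the identifier block 0 of 9 were called there, and in edgeR on the 2 groups alone 0 of 7 tested.

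BDL against sham called 2 of 9 in ENT pigs (background 3.39%), 1 of 9 in SLE pigs (background 1.49%), and 1 of 9 in MLE pigs (background 3.78%). With the identifier block the counts were 2 of 9 in ENT, 0 of 9 in SLE, and 2 of 9 in MLE. The members' median log2 fold changes after BDL were -0.43 in ENT, 0.52 in SLE, and -1.17 in MLE, beside 0.01, 0.01, and 0.00 over all genes. A count of 1 of 9 rests on that gene alone and says little of the family. The interaction of surgery and diet, called at any fold, was passed by 0 of 9 members for SLE against ENT (background 2.33%; 2 at an unadjusted p under 0.05, 0 by DESeq2). For MLE against ENT edgeR also called 0 of 9 (background 0.0617%; 1 at an unadjusted p under 0.05, 0 by DESeq2). For MLE against SLE it called 0 of 9 (background 0.265%; 4 at an unadjusted p under 0.05, 1 by DESeq2). The members' median interactions were 0.75, -0.12, and -0.88, beside 0.00, 0.01, and 0.00 over all genes. In the 4 comparisons of parenteral with enteral feeding the members' share called was thus above the background. The members were chosen with earlier results of these data known. Among the 11 further tested CYP2 genes, 1 was called in SLE-sham, 1 in MLE-sham, 0 in SLE-BDL, and 0 in MLE-BDL against ENT. No member's response to BDL was called as different between diets in edgeR on all pigs without a block. With the identifier number as a block CYP2C49 was called for SLE against ENT (1.83).

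**Figure D2:**
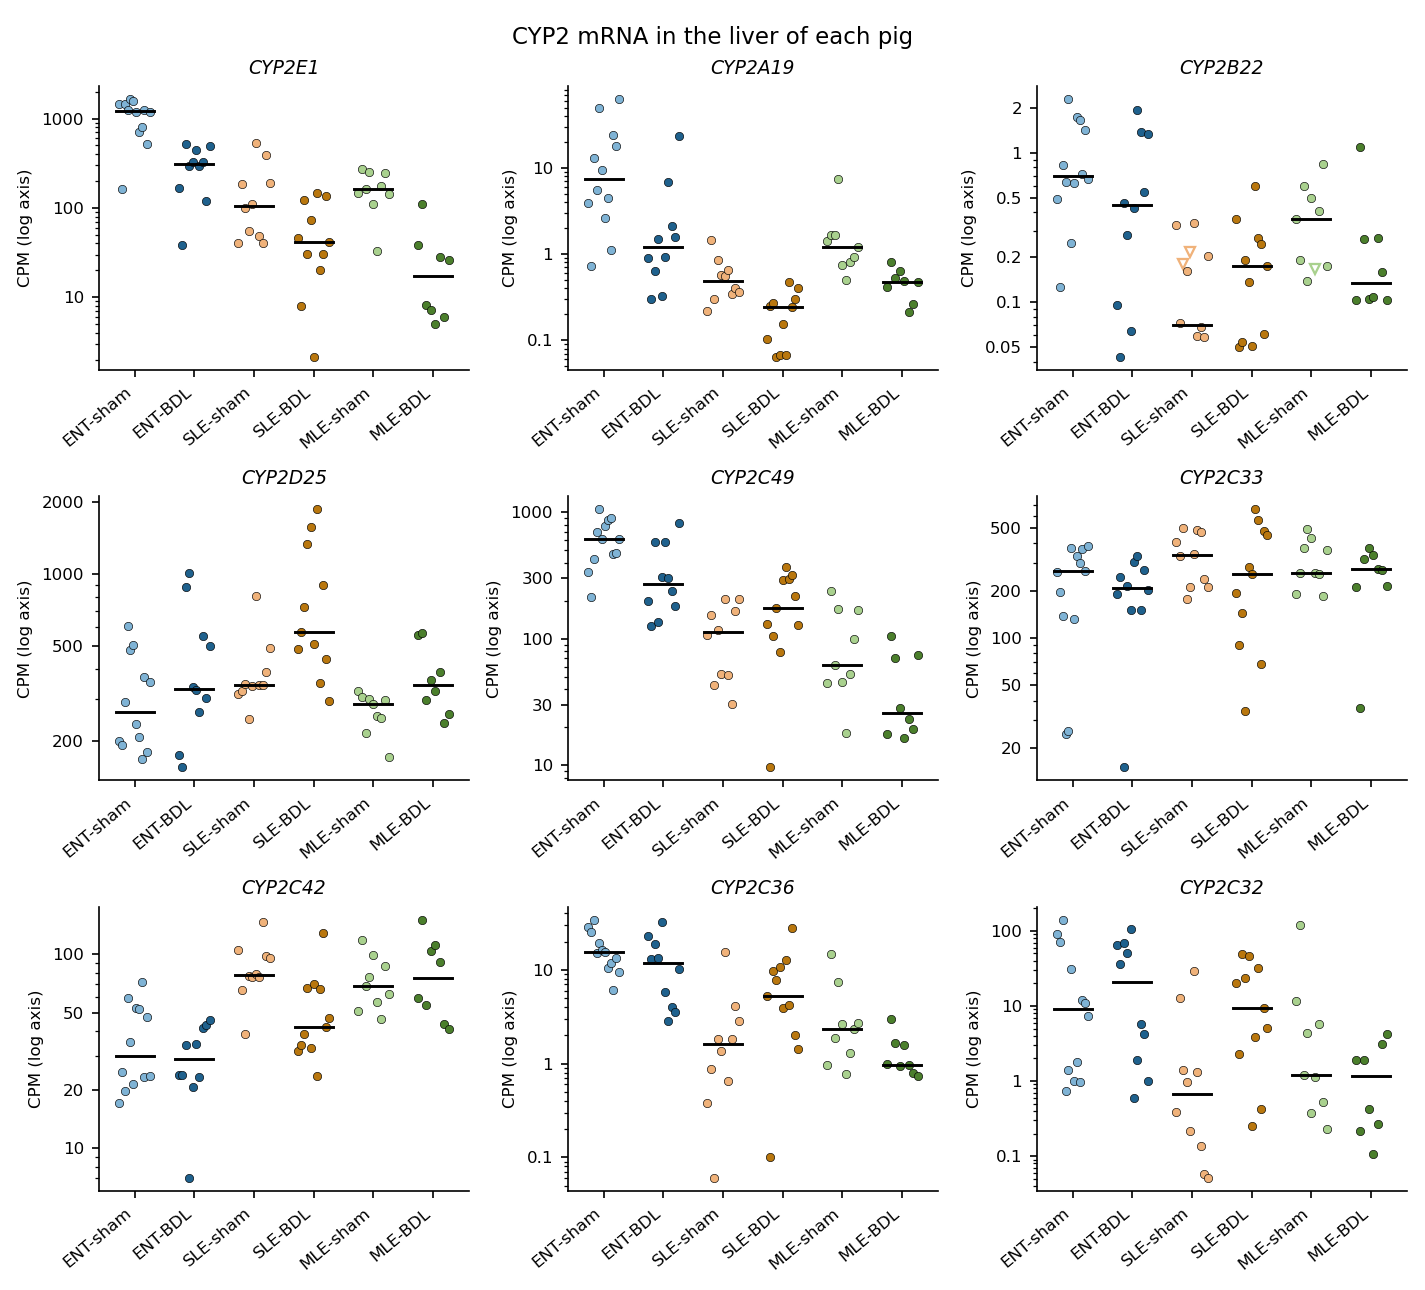
Level of each of the 9 genes in CPM (vertical log axis) in every pig of the 6 groups (horizontal axis); points are pigs, bars are group medians, and open triangles are the upper limits of 3 pigs with 0 counts of CYP2B22. CYP2E1, CYP2A19, and CYP2C49 lie lower in the parenterally fed groups than in ENT-sham, and CYP2C42 lies higher in SLE-sham.

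CYP2E1 (gene 403216, chr14:141690737-141703078) encodes the P450 that oxidizes ethanol, acetone, and small solvents and is a textbook marker of hepatocytes around the central vein. In ENT-sham livers it ranged from 163 to 1658 CPM (median 1214, mean 1100.1 ± 456, n = 12). In ENT-BDL livers it ranged from 38.8 to 515 CPM (median 310.3, mean 303 ± 158, n = 10). The groups overlapped only through ENT-sham replicate 2 at 163 CPM, whose library resembled that of ENT-BDL replicate 1 at 169 CPM. Without these, all 9 ENT-BDL pigs lay below all 11 ENT-sham pigs, whose lowest value was 523 CPM. CYP2E1 fell 3.63-fold after BDL in ENT pigs, with 2 of 10 BDL pigs below every sham pig (log2 fold change -1.86 ± 0.53 SE, adjusted p = 0.0106). The change was -1.91 (adjusted p = 0.00955) without the close libraries and -2.0 with the identifier number as a block.

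CYP2E1 was lower in sham pigs on either lipid emulsion than in those fed enterally. SLE-sham livers ranged from 40.1 to 535 CPM (median 105, mean 169.8 ± 168, n = 10). MLE-sham livers ranged from 33.1 to 274 CPM (median 163, mean 172 ± 77.1, n = 9). Of these, 6 of 10 SLE-sham and 5 of 9 MLE-sham pigs lay below every ENT-sham pig, and without the close libraries 9 of 10 and 9 of 9 did. SLE-sham was 6.48-fold below ENT-sham (log2 fold change -2.70 ± 0.55, adjusted p = 1.54e-04), and -2.81 without the close libraries. MLE-sham was 6.41-fold below ENT-sham (-2.68 ± 0.58, adjusted p = 4.32e-04), and -2.80 without them. Between the emulsions no difference in CYP2E1 was detectable in sham pigs, at 0.01 ± 0.55 with a 95% interval from -1.06 to 1.09. The block on identifier number gave -3.07 and -2.47 from ENT-sham.

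The lowest CYP2E1 levels were in parenterally fed pigs with BDL. SLE-BDL livers ranged from 2.15 to 148 CPM (median 41.4, mean 59.8 ± 52.2, n = 11), and 5 of 11 lay below every SLE-sham pig. MLE-BDL livers ranged from 5.02 to 109.6 CPM (median 17.1, mean 28.6 ± 35.1, n = 8), and 6 of 8 lay below every MLE-sham pig. Replicate 2 was the highest MLE-BDL pig, with the next at 38.7 CPM. CYP2E1 fell 6.0-fold after BDL in MLE pigs (-2.59 ± 0.63, adjusted p = 0.00265), and by 3.33 on the log2 scale without MLE-BDL replicate 2. In SLE pigs the change of -1.51 ± 0.53 did not pass (adjusted p = 0.0898), nor with the identifier block (0.0902), although DESeq2 called it. The 3 responses to BDL were not shown to differ, with interactions of 0.35 for SLE against ENT (adjusted p = 0.888), -0.73 for MLE against ENT (0.850), and -1.08 for MLE against SLE (0.7197). Among BDL pigs, SLE lay 5.07-fold below ENT (-2.34 ± 0.54, adjusted p = 0.00123; -2.41 without the close libraries; 5 of 11 pigs below every ENT-BDL pig). MLE lay 10.6-fold below ENT (-3.41 ± 0.64, adjusted p = 1.04e-04; -3.47 without the close libraries; 7 of 8 pigs below every ENT-BDL pig), and the value was -4.15 without MLE-BDL replicate 2. The identifier block gave -3.04 after BDL in MLE, -2.57 in SLE-BDL against ENT-BDL, and -3.52 in MLE-BDL against ENT-BDL.

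CYP2A19 (gene 403149, chr6:49056579-49064111) is the pig member of the subfamily that oxidizes nicotine and coumarin, and with CYP2E1 it breaks down skatole in pig liver. It varied widely even in ENT-sham, from 0.719 to 63.1 CPM (median 7.50, mean 16.2 ± 20.1, n = 12). In ENT-BDL it ranged from 0.301 to 23.1 CPM (median 1.20, mean 3.82 ± 7.04, n = 10), where the top value belonged to replicate 10 and the next was 6.84 CPM. The ranges overlapped, with 3 of 10 ENT-BDL pigs below every ENT-sham pig, or 4 of 9 without the close libraries. CYP2A19 fell 4.27-fold after BDL in ENT pigs (-2.09 ± 0.58, adjusted p = 0.00814), by 2.11 without the close libraries, and by 3.27 without ENT-BDL replicate 10. In edgeR on the 2 groups alone the value was -2.10 and not called. Blocking on the identifier number gave -2.59.

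CYP2A19 was very low on soy lipid. SLE-sham pigs ranged from 0.220 to 1.45 CPM (median 0.484, mean 0.573 ± 0.363, n = 10), and 8 of 10 lay below every ENT-sham pig, or 9 of 10 without the close libraries. SLE-BDL pigs ranged from 0.0640 to 0.470 CPM (median 0.244, mean 0.218 ± 0.140, n = 11), and 8 of 11 lay below every ENT-BDL pig. In 5 SLE-BDL pigs it had 3 counts or fewer, so their values sit at the limit of the depth. SLE-sham was 28.3-fold below ENT-sham (-4.82 ± 0.70, adjusted p = 3.06e-07), -4.95 without the close libraries and -3.91 with the replicate block. SLE-BDL was 16.8-fold below ENT-BDL (-4.07 ± 0.75, adjusted p = 6.33e-05), -4.19 without the close libraries and -2.90 without ENT-BDL replicate 10. The block on identifier number gave -5.35 and -3.90.

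On mixed lipid the mean of CYP2A19 lay between those on ENT and SLE, though MLE-sham was not shown to differ from SLE-sham (1.66 ± 0.72, adjusted p = 0.339). MLE-sham pigs ranged from 0.503 to 7.37 CPM (median 1.22, mean 1.82 ± 2.13, n = 9), and the top value came from replicate 4, with the next at 1.67 CPM. MLE-BDL pigs ranged from 0.214 to 0.817 CPM (median 0.477, mean 0.477 ± 0.192, n = 8). Of the MLE-sham pigs 1 of 9 lay below every ENT-sham pig, or 4 of 9 without the close libraries, since ENT-sham replicate 2 was the lowest of its group, and 2 of 8 MLE-BDL pigs lay below every ENT-BDL pig. MLE-sham was 8.97-fold below ENT-sham (-3.16 ± 0.65, adjusted p = 2.23e-04), -3.29 without the close libraries, -3.84 without MLE-sham replicate 4, and -2.17 with the replicate block. MLE-BDL was 7.84-fold below ENT-BDL (-2.97 ± 0.76, adjusted p = 0.00367) and -3.09 without the close libraries, but it was -2.22 with the replicate block, and without ENT-BDL replicate 10 it was -1.80 and no longer called. With the identifier block these were -4.36 among sham and -3.55 among BDL pigs. The changes after BDL in SLE (-1.34 ± 0.86) and MLE (-1.90 ± 0.78) did not pass, and the interactions were 0.75 for SLE against ENT (adjusted p = 0.823) and 0.19 for MLE against ENT (0.977). The fall after BDL in MLE was called with the identifier number as a block (-1.78), by DESeq2 (-1.94), and in edgeR on the 2 groups alone (-1.91), but it was -1.23 (adjusted p = 0.330) without MLE-sham replicate 4.

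CYP2B22 (gene 403104, chr6:49158175-49173872) lies close to CYP2A19 on the same strand and belongs to the subfamily that phenobarbital induces through the receptor CAR. It was the scarcest member in these livers. ENT-sham pigs ranged from 0.127 to 2.29 CPM (median 0.695, mean 0.956 ± 0.666, n = 12), and ENT-BDL pigs from 0.0430 to 1.93 CPM (median 0.446, mean 0.657 ± 0.657, n = 10). SLE-sham pigs ranged from 0 to 0.337 CPM (median 0.0702, mean 0.129 ± 0.125, n = 10), and MLE-sham pigs from 0 to 0.847 CPM (median 0.359, mean 0.358 ± 0.264, n = 9). It had 3 counts or fewer in 27 of the 60 pigs and 0 counts in SLE-sham replicates 3 and 5 and MLE-sham replicate 6, which allows up to 0.181, 0.216, and 0.168 CPM. SLE-BDL pigs ranged from 0.0499 to 0.601 CPM (median 0.173, mean 0.199 ± 0.168, n = 11), and MLE-BDL pigs from 0.103 to 1.09 CPM (median 0.134, mean 0.275 ± 0.336, n = 8). The parenterally fed groups thus overlapped with the enterally fed ones at very few reads.

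CYP2B22 was lower in SLE-sham than in ENT-sham by 6.79-fold (-2.76 ± 0.57, adjusted p = 1.50e-04; -2.88 without the close libraries), with 6 of 10 pigs below every ENT-sham pig, or 8 of 10 without the close libraries. In SLE-BDL it was 3.27-fold below ENT-BDL (-1.71 ± 0.55, adjusted p = 0.0208; -1.84 without the close libraries), although 0 of 11 pigs lay below the lowest ENT-BDL pig. This call was lost without ENT-BDL replicate 7 (-1.37) or 8 (-1.52). MLE-sham was 2.66-fold below ENT-sham (-1.41 ± 0.53, adjusted p = 0.0480; -1.53 without the close libraries), with 1 of 9 pigs below every ENT-sham pig, or 4 of 9 without the close libraries. That call was unstable, since it was lost on leaving out any of ENT-sham replicates 3 (-1.43), 5 (-1.21), 8 (-1.30), 9 (-1.31), and 11 (-1.34). It was also lost without any of MLE-sham replicates 1 (-1.41), 2 (-1.33), 4 (-1.31), 5 (-1.48), 6 (-1.23), 7 (-1.43), and 9 (-1.32), with no filter (-1.41), and with the replicate block (-1.40). MLE-BDL stood at -1.24 ± 0.58 from ENT-BDL and was not called, but it was called without MLE-BDL replicate 2, the highest pig of its group (-2.0). After BDL the gene did not pass on any diet (-0.54 in ENT, 0.52 in SLE, and -0.37 in MLE). The interaction for SLE against ENT, 1.05 ± 0.81, did not pass either. The block on identifier number gave -3.53 in SLE-sham, -2.02 in MLE-sham, and -1.77 in SLE-BDL.

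CYP2D25 (gene 397687, chr5:6539021-6543643) is the pig microsomal vitamin D 25-hydroxylase. It was the member that rose after BDL. SLE-sham livers ranged from 246 to 806 CPM (median 343, mean 394 ± 158, n = 10), and SLE-BDL livers from 293 to 1856 CPM (median 568, mean 819 ± 531, n = 11). The groups overlapped, with 4 of 11 SLE-BDL pigs above every SLE-sham pig. The rise in SLE pigs was 2.08-fold (1.06 ± 0.29, adjusted p = 0.0258), just past the fold limit. Leaving out SLE-BDL replicate 4 (0.96), 5 (0.91), or 7 (0.86) or SLE-sham replicate 4 (0.99) ended the call, as did the identifier number as a block (0.73) and edgeR on the 2 groups alone (1.06). The other diets showed smaller shifts with much overlap. In ENT pigs the ranges were 168 to 604 CPM (median 262, mean 315 ± 147, n = 12) in sham and 154 to 1004 CPM (median 329.5, mean 448 ± 289, n = 10) after BDL. In MLE pigs the ranges were 171 to 324 CPM (median 283, mean 266 ± 49.1, n = 9) in sham and 238 to 565 CPM (median 341, mean 373 ± 125, n = 8) after BDL. Neither passed, at 0.51 ± 0.28 in ENT and 0.48 ± 0.32 in MLE, and the rise in SLE was not shown to be larger (interaction 0.55 against ENT, adjusted p = 0.578, and -0.57 for MLE against SLE, 0.735).

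No diet difference in CYP2D25 was called in sham pigs, at 0.32 (95% interval -0.23 to 0.88) for SLE and -0.24 (-0.82 to 0.33) for MLE against ENT. MLE-sham stood at -0.56 from SLE-sham (-1.16 to 0.04, adjusted p = 0.501), an interval that reaches past 2-fold. Among BDL pigs SLE stood 1.83-fold above ENT (0.87 ± 0.29, adjusted p = 0.0277; 0.78 without the close libraries), under the fold limit, and 3 of 11 pigs lay above every ENT-BDL pig. It passed the limit without ENT-BDL replicate 3 (1.03) or 4 (1.08), and stood at 0.72 with the identifier block. Between MLE-BDL and SLE-BDL the difference of -1.14 ± 0.32 missed the threshold (adjusted p = 0.0640). It was called by DESeq2 (-1.14) and in edgeR without the close ENT libraries (-1.14). It was also called on leaving out any of SLE-BDL replicates 1 (-1.20), 2 (-1.18), 6 (-1.20), 8 (-1.23), 10 (-1.21), and 11 (-1.23). It was further from the threshold with the identifier block (-0.91, adjusted p = 0.272) and without SLE-BDL replicate 7 (-0.95, 0.166). The level of CYP2D25 was thus not shown to differ with diet in sham pigs, and its SD in CPM was largest in SLE-BDL, where its mean was also highest.

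The CYP2C members belong to the subfamily that oxidizes many drugs as well as arachidonic acid, and the particular substrates of most pig CYP2C enzymes are less settled. CYP2C36, CYP2C32, CYP2C49, and CYP2C42 lie in this order on the plus strand of chromosome 14, between 106184665 and 106701809, and CYP2C33 lies on the minus strand at chr14:111268751-111301748. These genes are close paralogs, so reads may have been divided among them by the alignment. The end of CYP2C42 (106701809) overlaps the start of CYP2C91 (106696697), a gene on the opposite strand, and whether reads were counted by strand is not stated.

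**Figure D3:**
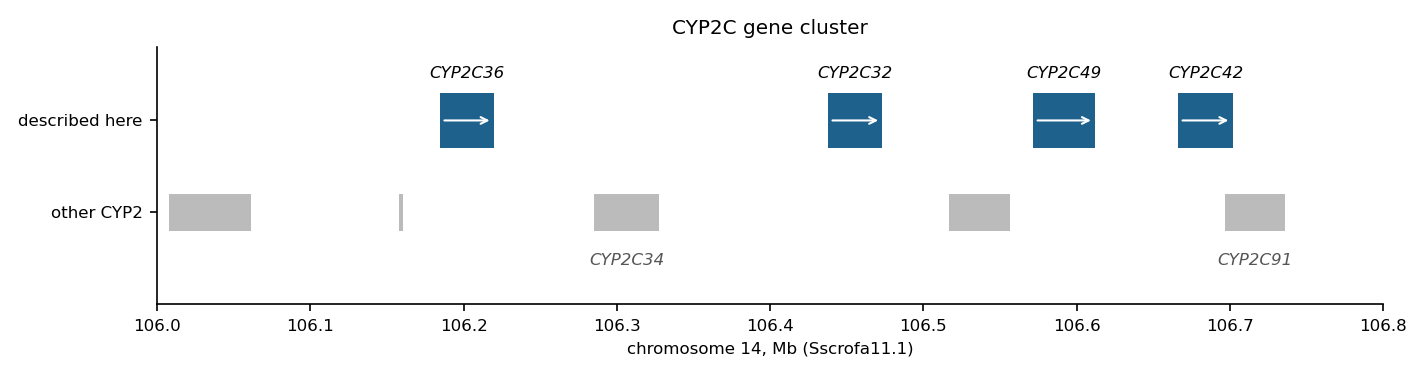
Positions of CYP2C36, CYP2C32, CYP2C49, and CYP2C42 (arrows in the direction of the strand) and of the other CYP2 genes (grey) on chromosome 14 of Sscrofa11.1; the horizontal axis is the position in Mb. CYP2C42 and CYP2C91 overlap on opposite strands.

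CYP2C49 (gene 403215, chr14:106571803-106612082) was the most abundant CYP2C member per kilobase in ENT pigs. ENT-sham livers ranged from 214 to 1053 CPM (median 613, mean 619 ± 249, n = 12). SLE-sham livers ranged from 30.4 to 208 CPM (median 112, mean 114 ± 68.0, n = 10), and all 10 lay below every ENT-sham pig. MLE-sham livers ranged from 18.1 to 237 CPM (median 62.5, mean 100.1 ± 75.0, n = 9), and 8 of 9 lay below every ENT-sham pig, or all 9 without the close libraries. CYP2C49 was the member whose sham groups on parenteral and enteral feeding separated most fully. SLE-sham was 5.43-fold below ENT-sham (-2.44 ± 0.45, adjusted p = 2.77e-05; -2.53 without the close libraries), and MLE-sham 6.19-fold (-2.63 ± 0.47, adjusted p = 3.12e-05; -2.72 without them). Blocking on the identifier number gave -3.08 and -3.03.

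Among BDL pigs CYP2C49 was lowest on mixed lipid. ENT-BDL livers ranged from 126 to 822 CPM (median 269.9, mean 349 ± 235, n = 10), SLE-BDL livers from 9.62 to 367 CPM (median 176, mean 193 ± 114, n = 11), and MLE-BDL livers from 16.5 to 106 CPM (median 25.9, mean 44.6 ± 34.1, n = 8). All 8 MLE-BDL pigs lay below every ENT-BDL pig, while 3 of 11 SLE-BDL pigs did. MLE-BDL was 7.82-fold below ENT-BDL (-2.97 ± 0.51, adjusted p = 2.96e-05; -3.04 without the close libraries; -3.16 with the identifier block). MLE-BDL was 4.33-fold below SLE-BDL (-2.12 ± 0.49, adjusted p = 0.0195), but the lowest SLE-BDL pig lay under every MLE-BDL pig. This call was lost without MLE-BDL replicate 5 (-1.99) or 7 (-2.0), with the identifier block (-1.91), and in edgeR on the 2 groups alone (-2.13). SLE-BDL stood at -0.85 ± 0.43 from ENT-BDL and was not called, except with the identifier block (-1.24).

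BDL itself did not change CYP2C49 past the threshold on any diet. The values were -0.83 ± 0.42 in ENT (adjusted p = 0.178), 0.76 ± 0.43 in SLE (0.352), and -1.17 ± 0.49 in MLE (0.09995), and the last was called without MLE-BDL replicate 2 (-1.48). The signs differ between diets, but the interactions did not pass, at 1.59 for SLE against ENT (adjusted p = 0.163) and -1.93 for MLE against SLE (0.2398). The former was called with the identifier number as a block (1.83).

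CYP2C36 (gene 403110, chr14:106184665-106219631) followed CYP2C49 at a far lower level. ENT-sham livers ranged from 6.14 to 34.0 CPM (median 15.3, mean 17.1 ± 8.26, n = 12). SLE-sham livers ranged from 0.0603 to 15.5 CPM (median 1.60, mean 2.95 ± 4.58, n = 10), where replicate 6 was the highest and the next stood at 4.13 CPM. MLE-sham livers ranged from 0.782 to 14.6 CPM (median 2.35, mean 3.84 ± 4.50, n = 9), with replicate 2 the highest. Apart from single pigs the diets were nearly apart, since 9 of 10 SLE-sham and 7 of 9 MLE-sham pigs lay below every ENT-sham pig. CYP2C36 was 5.72-fold lower in SLE-sham (-2.52 ± 0.57, adjusted p = 5.55e-04; -2.45 without the close libraries), and -3.44 without SLE-sham replicate 6. It was 4.46-fold lower in MLE-sham (-2.16 ± 0.58, adjusted p = 0.00505; -2.10 without the close libraries), and -2.78 without MLE-sham replicate 2. The identifier block gave -2.45 in SLE-sham and -2.39 in MLE-sham.

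In BDL pigs CYP2C36 was lowest on mixed lipid. ENT-BDL livers ranged from 2.81 to 32.1 CPM (median 11.7, mean 12.7 ± 9.62, n = 10), SLE-BDL livers from 0.0997 to 28.0 CPM (median 5.23, mean 7.82 ± 7.82, n = 11), and MLE-BDL livers from 0.727 to 2.99 CPM (median 0.970, mean 1.33 ± 0.754, n = 8). Of the MLE-BDL pigs 7 of 8 lay below every ENT-BDL pig. MLE-BDL was 9.54-fold below ENT-BDL (-3.25 ± 0.68, adjusted p = 3.96e-04; -3.12 without the close libraries; -3.27 with the identifier block), whereas SLE-BDL at -0.70 ± 0.53 was not called. MLE-BDL was 5.86-fold below SLE-BDL (-2.55 ± 0.66, adjusted p = 0.0430), though the lowest SLE-BDL pig was lower still. That call was lost on leaving out SLE-BDL replicate 4 (-2.56), 5 (-2.50), 7 (-2.46), or 9 (-2.13). It was also lost without MLE-BDL replicate 1 (-2.50), 3 (-2.60), 4 (-2.50), 5 (-2.59), 6 (-2.50), 7 (-2.47), or 8 (-2.46), with the identifier block (-2.60), with no filter (-2.56), and in edgeR on the 2 groups alone (-2.56).

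After BDL, CYP2C36 stood at -0.43 ± 0.52 in ENT, 1.38 ± 0.57 in SLE (adjusted p = 0.159), and -1.53 ± 0.68 in MLE (0.125), none of them called. The interactions were 1.81 for SLE against ENT (adjusted p = 0.227) and -2.91 for MLE against SLE (0.152). Without SLE-sham replicate 6 the rise in SLE (2.30) and both of these interactions (2.74 and -3.85) were called, so the response of CYP2C36 on soy lipid turned on that pig.

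CYP2C32 (gene 403106, chr14:106437957-106473226) differed widely from pig to pig. Its highest ENT-sham pig stood 189.5-fold above its lowest (0.739 to 140.0 CPM, median 9.09, mean 30.7 ± 45.6, n = 12). In SLE-sham the ratio was 571-fold (0.0512 to 29.2 CPM, median 0.676, mean 4.64 ± 9.45, n = 10), and in MLE-sham 512-fold (0.232 to 119 CPM, median 1.21, mean 16.0 ± 38.8, n = 9), where replicate 2 held the top value and the next was 11.6 CPM. Low counts entered here, since 4 SLE-sham pigs and 1 MLE-BDL pig had 3 counts or fewer. ENT-BDL ranged from 0.591 to 106 CPM (median 20.7, mean 33.8 ± 37.2, n = 10), SLE-BDL from 0.256 to 49.7 CPM (median 9.25, mean 17.5 ± 18.2, n = 11), and MLE-BDL from 0.108 to 4.21 CPM (median 1.16, mean 1.51 ± 1.53, n = 8). MLE-BDL was thus the group with no high pig, and 4 of 8 lay below every ENT-BDL pig.

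CYP2C32 was 22.1-fold lower in MLE-BDL than in ENT-BDL (-4.47 ± 1.3, adjusted p = 0.0122; -4.32 without the close libraries), but with the identifier block the value was -1.47 and not called. It was 6.64-fold lower in SLE-sham than in ENT-sham (-2.73 ± 1.05, adjusted p = 0.0437), with 5 of 10 pigs below every ENT-sham pig, and this call was fragile. It was lost without the close libraries (-2.56), with the identifier block (-0.92), with the replicate block (-2.84), with no filter (-2.72), and in edgeR on the 2 groups alone (-2.74). Leaving out ENT-sham replicate 1 (-2.45), 2 (-2.56), 3 (-2.17), or 6 (-2.73) also ended it. So did leaving out SLE-sham replicate 1 (-2.59), 3 (-2.63), 4 (-2.61), 5 (-2.60), 7 (-2.63), 8 (-2.59), 9 (-2.59), or 10 (-2.58), while without SLE-sham replicate 6 the value was -4.08. MLE-sham stood at -0.95 ± 0.99 from ENT-sham, and at -3.30, called, without MLE-sham replicate 2. After BDL the values of 0.13 in ENT, 1.91 in SLE, and -3.39 in MLE (adjusted p = 0.0648) did not pass, nor did the interaction of -5.30 ± 1.64 for MLE against SLE (0.162), although DESeq2 called the last 2 (-3.42 and -5.33). The identifier block cut these to -1.84 (adjusted p = 0.308) and -2.68 (0.563), and leaving out MLE-sham replicate 2 cut them to -1.05 (0.626) and -2.96 (0.530). DESeq2 also called MLE-BDL against SLE-BDL (-3.54), which edgeR did not (-3.52 ± 1.26, adjusted p = 0.170; -1.62 and 0.724 with the identifier block).

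CYP2C42 (gene 403111, chr14:106666445-106701809) moved the other way from its neighbours. ENT-sham livers ranged from 17.1 to 72.0 CPM (median 29.9, mean 37.4 ± 18.5, n = 12), and ENT-BDL livers from 7.01 to 45.8 CPM (median 28.9, mean 29.8 ± 12.2, n = 10). SLE-sham livers ranged from 38.9 to 146 CPM (median 78.2, mean 85.8 ± 28.3, n = 10), and 8 of 10 lay above every ENT-sham pig. MLE-BDL livers ranged from 41.3 to 150.3 CPM (median 75.0, mean 82.0 ± 38.8, n = 8), and 6 of 8 lay above every ENT-BDL pig. The remaining groups were intermediate, at 46.5 to 118 CPM in MLE-sham (median 68.5, mean 73.8 ± 23.7, n = 9) and 23.4 to 129 CPM in SLE-BDL (median 42.2, mean 52.9 ± 29.8, n = 11). CYP2C42 was 2.30-fold higher in SLE-sham than in ENT-sham (1.20 ± 0.27, adjusted p = 5.12e-04; 1.15 without the close libraries). It was 2.75-fold higher in MLE-BDL than in ENT-BDL (1.46 ± 0.30, adjusted p = 3.38e-04; 1.42 without them). With the identifier block neither was called, at 0.85 (adjusted p = 0.0207), under the fold limit, and at 0.87 (0.0798), which missed the adjusted p as well.

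In the other 2 comparisons with ENT, CYP2C42 was higher at an adjusted p under 0.05 but under the fold limit. MLE-sham was 1.98-fold above ENT-sham (0.98 ± 0.28, adjusted p = 0.00710; 0.93 without the close libraries), and 4 of 9 pigs lay above every ENT-sham pig. It was called without any of ENT-sham replicates 4 (1.06), 7 (1.04), 8 (1.04), 9 (1.11), and 11 (1.02) or MLE-sham replicates 1 (1.04), 6 (1.03), 7 (1.05), and 9 (1.01), and with the replicate block (1.02), but the identifier block cut it to 0.38, where it had no detectable difference. SLE-BDL was 1.78-fold above ENT-BDL (0.83 ± 0.28, adjusted p = 0.0289; 0.79 without the close libraries; 0.74 with the identifier block). BDL did not change CYP2C42 past the threshold, at -0.33 in ENT, -0.70 in SLE, and 0.15 in MLE, and the interactions of -0.37 for SLE against ENT and 0.85 for MLE against SLE did not pass.

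CYP2C33 (gene 403107, chr14:111268751-111301748) stands apart from the cluster and was called in 0 of the 12 comparisons by edgeR, with 0 at an unadjusted p under 0.05 and 0 by DESeq2. Its group medians lay between 207 CPM in ENT-BDL and 337 CPM in SLE-sham. The ranges all overlapped, from 24.7 to 381 CPM in ENT-sham (mean 234 ± 129, n = 12), 15.1 to 332 in ENT-BDL (207 ± 90.7, n = 10), and 177 to 499.8 in SLE-sham (337 ± 124, n = 10). In the other groups they were 34.3 to 656 CPM in SLE-BDL (292 ± 214, n = 11), 184 to 493 in MLE-sham (312 ± 108, n = 9), and 35.9 to 376 in MLE-BDL (255 ± 105, n = 8). A few pigs of CYP2C33 had values far under the rest of their group. Its changes from ENT-sham were 0.53 (95% interval -0.25 to 1.31) in SLE-sham and 0.42 (-0.38 to 1.22) in MLE-sham, which leaves room for a 2-fold rise but not for a fall of the size seen in CYP2C49.

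Because reads of close paralogs can be divided unevenly, the counts of all 11 CYP2C genes in the table were also added up and tested as 1 feature. The sum stood at 1202 ± 327 CPM in ENT-sham, 861 ± 253 in SLE-sham, and 898 ± 306 in MLE-sham, and at 812 ± 291 CPM in ENT-BDL, 821 ± 409 in SLE-BDL, and 885 ± 319 in MLE-BDL. It was not called in any comparison by edgeR (2 at an unadjusted p under 0.05; DESeq2 was not run on it), with -0.48 in SLE-sham (adjusted p = 0.104) and -0.42 in MLE-sham (0.195) from ENT-sham, and -0.57 after BDL in ENT (0.0700). With the identifier block MLE-sham was called at -1.22, SLE-sham stood just under the fold limit at -0.97 (adjusted p = 1.92e-04), and the value after BDL in ENT was -0.66 (0.00567). The CYP2C transcripts as a whole thus moved less than CYP2C49 and CYP2C36 did, and the split of reads between paralogs was not tested.

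The table holds 18 further CYP2 genes, of which 11 were tested. CYP2J34 fell after BDL in ENT pigs (-1.71 ± 0.61, adjusted p = 0.0437; -1.61 with the identifier block and -1.86 without the close libraries), 1 of these 11 beside 3.39% of all tested genes. A gene described as CYP2U1 was lower in SLE-sham (-1.13) and MLE-sham (-1.03) than in ENT-sham, again 1 of 11 beside 5.24% and 3.71%, and at -1.13 and -1.12 with the identifier block. The most abundant was CYP2C34, at a mean of 189 CPM over all pigs. A count of 1 of 11 describes that gene and not the rest.

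Within groups, members varied together in some pairs. After group means were subtracted from log2 CPM, 7 of 36 pairs had both Pearson's r and Spearman's rho with an adjusted p under 0.05 over 60 pigs, 6 of them positive, and the median r of all pairs was 0.10. CYP2E1 and CYP2D25 were related at r = 0.50 and rho = 0.55 (permutation p = 1.90e-04 and 1e-05, the latter the smallest that the permutations can give; adjusted p = 0.00324 and 3.60e-04), with r = 0.47 without the 2 pigs farthest from the median. CYP2E1 and CYP2C49 gave r = 0.49 and rho = 0.49 (permutation p = 8.20e-04 and 2.80e-04, adjusted p = 0.00590 and 0.00336), with r = 0.58 without the farthest pigs. Both of these pairs had a positive r in all 6 groups, so pigs with more CYP2E1 tended to have more CYP2D25 and CYP2C49 whatever their group. CYP2C32 and CYP2C42 ran against each other at r = -0.53 and rho = -0.56 (permutation p = 3.00e-05 and 2.00e-05, adjusted p = 0.00108 and 3.60e-04), with r = -0.63 without the farthest pigs. Within groups this r lay between -0.95 and 0.16, positive in 1 group. The other pairs were CYP2B22 with CYP2C49 (r = 0.44), CYP2E1 with CYP2C36 (0.37), CYP2C42 with CYP2C49 (0.36), and CYP2B22 with CYP2C42 (0.34). Once the identifier number was also subtracted, 4 pairs passed, and the opposite course of CYP2C32 and CYP2C42 was the 1 shared with the 7 (r = -0.54). The others were CYP2C36 with CYP2C49 (r = 0.77), CYP2C33 with CYP2C42 (-0.56), and CYP2C32 with CYP2C33 (0.46). The pairs of CYP2E1 with CYP2D25 (r = 0.37) and with CYP2C49 (0.39) did not pass there. Without the close libraries 8 passed, 6 of them shared.

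Part of the spread went with the identifier number of the labels. Its 8 values took 43.8% of the spread within groups for CYP2C33, 43.6% for CYP2D25, and 41.0% for CYP2A19, beside a median of 23.6% over all tested genes. For these, 7.91%, 8.10%, and 11% of tested genes had a larger share. CYP2C49 (35.8%), CYP2E1 (35.0%), CYP2B22 (32.5%), and CYP2C32 (29.6%) were also above the median gene, and CYP2C42 (22.6%) and CYP2C36 (21.4%) were below it. What the number stands for was not tested.

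The genes whose levels ran most like a member over the 60 pigs, given for 8 of the 9, among 10807 genes with a mean log2 CPM of at least 2, were taken after group means were subtracted. For CYP2E1 they were CYP1A2 (r = 0.81), SLC13A3 (0.79), and ORMDL3 (0.73). For CYP2C49 they were FOLR2 (0.70), METTL7B (0.66), and MBL2 (0.64), and for CYP2C33 SMIM10L1 (0.69), C14H22orf39 (0.60), and RBBP9 (0.59). CYP2E1 had the closest companion of these 8, and CYP1A2 is, like it, known from hepatocytes near the central vein. For CYP2B22 they were TKFC (0.68), ARHGAP8 (0.59), and TM6SF2 (0.59), and for CYP2D25 AIFM2 (0.66), CCDC47 (0.65), and PSMC1 (0.64). For CYP2C32 they were SIAE (0.58), PTTG1IP (0.50), and GNG7 (0.49). For CYP2C36 they were ASS1 (0.56), SQSTM1 (0.55), and AASS (0.53), and for CYP2C42 PPIA, CPT1A, and CLUH (0.54 each).

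CYP2 enzymes depend on heme and on electron donors, and 13 genes of these functions were tested. ALAS1, the rate-limiting enzyme of heme synthesis in liver, was the called gene in SLE-BDL (1.94 ± 0.25, adjusted p = 4.27e-08) and in MLE-BDL (1.22 ± 0.26, adjusted p = 4.19e-04) against ENT-BDL, 1 of 13 in each, where 3.13% and 3.18% of all tested genes were called. The interaction for SLE against ENT was called for 2 of 13, where 2.33% of all tested genes were called. These were ALAS1 (1.53) and POR, the P450 oxidoreductase (0.91). Against ENT-BDL, ALAS1 was thus higher in the BDL groups in which CYP2E1 and CYP2A19 were lower. The other comparisons did not show this. ALAS1 stood at 122 ± 52.1 CPM in ENT-sham and 65.1 ± 13.2 in ENT-BDL, where both CYP2 genes also fell after BDL. It stood at 161 ± 43.9 CPM in SLE-sham, 131 ± 15.7 in MLE-sham, 249 ± 185 in SLE-BDL, and 152 ± 46.7 in MLE-BDL. In SLE-sham and MLE-sham against ENT-sham, where both CYP2 genes were lower, 0 of the 13 were called. Of 110 values called for genes of this and the following lists, 99 were also called with the identifier block and 109 without the close libraries. With the block ALAS1 stood at 1.75 in SLE-BDL and 1.0 in MLE-BDL.

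Of 24 tested regulators of P450 genes, 3 were lower in SLE-sham than in ENT-sham, beside 6 lower CYP2 members and 5.24% of all tested genes called, and the list's median was -0.18 beside -0.01 over all genes. NR1I3, which encodes the receptor CAR that drives CYP2B genes, was 1 of these (-1.35 ± 0.24, adjusted p = 1.39e-05). The others were DBP (-1.74) and HLF (-1.15), both clock-output transcription factors. NR1I3 was also the 1 called of 24 in MLE-sham against ENT-sham (-1.41), in SLE-BDL against ENT-BDL (-1.0), and in MLE-BDL against ENT-BDL (-1.52). With the identifier block these 3 values were -1.73, -1.13, and -1.75, and that of SLE-sham was -1.64. A count of 1 of 24 is near the 3.71%, 3.13%, and 3.18% of all tested genes called there, so it is a value of NR1I3 and not of the list. Its mean level was 28.4 ± 6.88 CPM in ENT-sham, 11.06 ± 4.93 in SLE-sham, and 10.7 ± 4.52 in MLE-sham, and 17.8 ± 6.72 CPM in ENT-BDL, 8.86 ± 4.46 in SLE-BDL, and 6.17 ± 2.33 in MLE-BDL. NR1I3 thus lay lower in the same 4 parenterally fed groups as CYP2E1 and CYP2A19, and its part in their levels was not tested. After BDL, DBP was lower in ENT pigs (-1.12) and HLF in MLE pigs (-1.27), 1 of 24 in each beside 3.39% and 3.78% of all tested genes.

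Of 15 tested P450 genes of other families, 5 were lower in SLE-sham, 5 in MLE-sham, 2 in SLE-BDL, and 5 in MLE-BDL than in the ENT group of the same surgery, where 5.24%, 3.71%, 3.13%, and 3.18% of all tested genes were called. CYP1A2 was among them in SLE-sham (-2.59 ± 0.43), MLE-sham (-2.66 ± 0.45), and MLE-BDL (-1.72 ± 0.47), like CYP2E1. CYP7A1, the rate-limiting enzyme of bile acid synthesis, was lower in all 4 (-3.86, -4.64, -2.87, and -4.31; with the identifier block -3.24, -4.43, -2.99, and -4.18). After BDL 5 of 15 were higher and 2 lower in ENT, 1 was higher in SLE, and 3 were higher in MLE, beside 3.39%, 1.49%, and 3.78% of all tested genes, while among CYP2 members the 1 rise was that of CYP2D25 in SLE. CYP3A22, the most abundant of them, rose after BDL in ENT (1.95 ± 0.28) and MLE (1.22 ± 0.31), where CYP2E1 fell.

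Since CYP2E1 is a gene of the zone around the central vein, 16 other pericentral genes were set beside it. Their summed level was 2773 ± 668 CPM in ENT-sham, 1766 ± 301 in SLE-sham, and 1720 ± 230 in MLE-sham, and 2322 ± 629 CPM in ENT-BDL, 1577 ± 248 in SLE-BDL, and 1789 ± 346 in MLE-BDL, with RGN the most abundant. In SLE-sham 4 of 16 were lower than in ENT-sham (CYP1A2 at -2.59, RHBG at -1.68, GULO at -1.41, and LGR5 at -1.24), and in MLE-sham 3 of 16 (CYP1A2 at -2.66, RHBG at -1.24, and GLUL at -1.04), beside 5.24% and 3.71% of all tested genes called. The list's medians were -0.55 and -0.64, smaller than the CYP2E1 changes of -2.70 and -2.68. In BDL pigs 2 of 16 were lower in each parenteral group than in ENT-BDL, and after BDL in ENT pigs 2 of 16 were lower (CYP1A2 at -1.37 and GULO at -1.20), beside 3.13%, 3.18%, and 3.39% of all tested genes. No pericentral gene was at 3 counts or fewer in all pigs, and the part of the zone in the CYP2E1 result was not tested. Of 15 periportal genes, 2 were lower in SLE-sham than in ENT-sham (HSD17B13 at -2.10 and PCK1 at -1.33). In MLE-sham 1 was lower (HSD17B13 at -1.82) and 1 higher (GLS2 at 1.22). Their medians were 0.03 and 0.23, beside the same 5.24% and 3.71%. After BDL, 2 periportal genes were called in ENT (HSD17B13 at -1.72 and PIGR at 1.59), beside 3.39% of all tested genes. In SLE 1 was called after BDL (SDS at 3.11), and in MLE 1 (PCK1 at -1.07), beside 1.49% and 3.78%. SLE-BDL against ENT-BDL called 1 (SDS at 2.39) and MLE-BDL against ENT-BDL 0, beside 3.13% and 3.18%.

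Markers of other liver cells are given beside the shares of all tested genes called, which were 3.39%, 1.49%, and 3.78% after BDL in ENT, SLE, and MLE, and 5.24%, 3.71%, 3.13%, and 3.18% in SLE-sham, MLE-sham, SLE-BDL, and MLE-BDL against ENT. Of 12 cholangiocyte markers 5 were higher after BDL in ENT, 2 in SLE, and 6 in MLE, and their sum went from 561 to 953 CPM, from 815 to 1104 CPM, and from 633 to 1014 CPM, led by KRT8. Between SLE-sham and ENT-sham, where CYP2 members were lower, 2 of 12 were higher (SPP1 at 2.51 and KRT19 at 1.27). Of 12 stellate cell markers 1, 2, and 3 were higher after BDL, and TIMP1 was also higher in SLE-BDL (1.45) and MLE-BDL (1.84) than in ENT-BDL, 1 of 12 in each, with COL3A1 the most abundant. Of 13 macrophage markers 2, 1, and 2 were higher after BDL, but the list's medians were -0.36, -0.10, and -0.31, and its sum went from 2589 to 1954 CPM, from 2151 to 1926 CPM, and from 2281 to 1669 CPM, with CD14 the most abundant. Of 9 endothelial markers, led by STAB2, 1 was lower after BDL in MLE, and of 9 lymphocyte markers, led by CD4, 1 was lower after BDL in MLE and 2 in SLE-BDL against ENT-BDL. Of 7 erythroid markers, led by HBB, 2 were lower in SLE-sham, 2 in MLE-sham, 1 in SLE-BDL, and 4 in MLE-BDL than in ENT, and 2 after BDL in MLE, but with the identifier block 1 was lower in SLE-sham, 0 in MLE-sham, and 3 in MLE-BDL. Of the 14 hepatocyte markers 0 were called by edgeR after BDL in ENT (8 at an unadjusted p under 0.05, 0 by DESeq2), SLE (7 and 0), and MLE (12 and 0), or in SLE-sham (7 and 0) and MLE-sham (7 and 0) against ENT-sham. The interactions called 3 of 14, the fibrinogen genes FGA (0.93), FGB (0.88), and FGG (0.93) for SLE against ENT, and the same genes for MLE against SLE (-1.11, -1.13, and -1.13), where 2.33% and 0.265% of all genes were called. The summed level of the hepatocyte markers was 179746 CPM in ENT-sham and 131059 CPM in MLE-BDL, a smaller change than those of CYP2E1, CYP2A19, or CYP2C49 between the same groups. None of these lists had a marker at 3 counts or fewer in all pigs, and their part in the CYP2 results was not tested.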

How the data were processed

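Liver RNA of 60 pigs was sequenced. The authors trimmed reads with fastp, aligned them to Sscrofa11.1 with HISAT2 2.0.5, assembled transcripts with StringTie 1.3.3, and counted reads per gene with featureCounts 1.5.0-p3, and the deposited values are counts. Of 30359 features, 24 had no gene identifier and took at most 0.0407% of a library. They were left out before scaling and testing.

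filterByExpr over the 6 groups set the filter on low counts, TMM the scaling, and genes were tested in edgeR 4.0.16 (glmQLFit, robust, glmQLFTest) under R 4.3.3, with Benjamini-Hochberg adjustment over 16210 genes. The tests were checked on simulated data. Alternatives were DESeq2 1.42.0, edgeR on the groups compared, RLE scaling, a replicate block, an identifier block, no filter, any fold, a minimum of 10 counts per gene in every pig, no close ENT libraries, and each pig left out. Replicate numbers do not pair the groups, as 137 pairs of libraries with the same number had a median residual correlation of -0.0173, while identifier numbers recur across groups (median 0.129). Python 3.11.15 (numpy 2.4.6, scipy 1.17.1, pandas 2.3.3, matplotlib 3.10.9) gave correlations with 100000 permutations, two-sided, over log2 CPM with a prior count of 2.

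All 9 members were named, as were other CYP2 genes that were called, up to 4 called genes per list with the largest change, and, for 8 members, the 3 genes most alike. Members and lists were chosen with earlier results of these data known. Limits for 0 counts are 3 counts, and they cover counting error only. Sequence motifs were not analysed here.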

Additional observations from a re-analysis of the deposited data

Results flagged for a closer look

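In sets of 8 to 10 pigs, 6 of 36 combinations of member and group held 1 pig far from the others on the log2 scale, by Dixon's ratio. Chance flags about 1 in 20 groups. They came from 5 pigs, and MLE-BDL replicate 2 stood apart for both CYP2B22 and CYP2C33.

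CYP2E1 in MLE-sham was lowest in replicate 6, at 33.1 CPM against 110.5 to 274 CPM in the other pigs. CYP2A19 in MLE-sham was highest in replicate 4, at 7.37 CPM against 0.503 to 1.67 CPM. CYP2B22 in MLE-BDL was highest in replicate 2, at 1.09 CPM against 0.103 to 0.268 CPM. CYP2C33 in ENT-BDL was lowest in replicate 3, at 15.1 CPM against 149.9 to 332 CPM, and in MLE-BDL in replicate 2, at 35.9 CPM against 209.6 to 376 CPM. CYP2C42 in ENT-BDL was lowest in replicate 4, at 7.01 CPM against 20.7 to 45.8 CPM.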

How the results depend on the processing

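Of 804 log2 fold changes recomputed under the alternatives, 760 kept their direction and side of the threshold, 18 lost the call, 12 gained it, and 14 turned, all of these uncalled. Depth limits CYP2B22 most. The share of spread by identifier number, the overlap without the close ENT libraries, and the lists and further CYP2 genes with the identifier block and without the close libraries were added after the data were seen. The cause was not tested for any value below. Counts of members called below stand without the share of all tested genes called in the same setting. A changed count thus cannot be told apart from a change in calling over all genes.

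Members called after BDL in ENT numbered 1 with at least 10 counts in every pig, which leaves 5 members tested, and 1 in edgeR on the groups compared. With at least 10 counts, SLE-sham against ENT-sham had 3, MLE-sham against ENT-sham 2, SLE-BDL against ENT-BDL 1, MLE-BDL against ENT-BDL 3, and MLE-BDL against SLE-BDL 1. In edgeR on the groups compared, BDL against sham had 0 of 7 members tested on SLE and 2 of 8 on MLE, SLE-sham against ENT-sham 5 of 8, SLE-BDL against ENT-BDL 1 of 7, and MLE-BDL against SLE-BDL 0 of 7. In SLE-BDL against ENT-BDL the members missing from the count, CYP2A19 and CYP2B22, were not tested there, so no call was lost. With the identifier number as a block, BDL against sham had 0 on SLE and 2 on MLE, SLE-sham against ENT-sham 5, SLE-BDL against ENT-BDL 4, MLE-BDL against ENT-BDL 4, MLE-BDL against SLE-BDL 0, and the interaction of SLE and ENT 1. By DESeq2, BDL against sham had 2 on SLE and 3 on MLE, MLE-BDL against SLE-BDL 4, and the interaction of MLE and SLE 1. At any fold SLE-BDL against ENT-BDL had 5, and with no filter MLE-BDL against SLE-BDL had 1. The pairs of members related between pigs numbered 4 with the identifier number subtracted. Without both close ENT libraries, members whose groups do not overlap numbered 1 after BDL in ENT and 2 in MLE-sham against ENT-sham. These were CYP2E1 in both and CYP2C49 in the latter. The share of all tested genes without overlap is not given here, so these counts describe those genes alone.

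With the replicate block, the log2 fold change of CYP2C33 turned to 0.0300 after BDL in ENT, 0.00969 in MLE-sham against SLE-sham, 0.0923 in MLE-BDL against SLE-BDL, and 0.0826 in the interaction of MLE and SLE. With the replicate block the interaction of MLE and ENT turned to -0.0461 for CYP2A19 and 0.0236 for CYP2D25.

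With the identifier number as a block, CYP2C32 turned to -0.23 after BDL in ENT, 0.14 in MLE-sham against ENT-sham, and 0.14 in SLE-BDL against ENT-BDL. CYP2C33 turned to 0.23 after BDL in SLE, -0.11 in MLE-sham against ENT-sham, -0.28 in MLE-BDL against ENT-BDL, and 0.44 in the interaction of SLE and ENT. CYP2C49 turned to 0.0455 in MLE-sham against SLE-sham. The CYP2C reads added up turned to 0.15 after BDL in SLE, -0.25 in MLE-sham against SLE-sham, -0.16 in SLE-BDL against ENT-BDL, -0.63 in MLE-BDL against ENT-BDL, -0.47 in MLE-BDL against SLE-BDL, and -0.22 in the interaction of MLE and SLE. The sum passed at -1.22 in MLE-sham against ENT-sham. Without both close ENT libraries it turned to -0.0313 in SLE-BDL against ENT-BDL.

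Leaving out each pig, the members called numbered 2 to 2 after BDL in ENT, 0 to 2 in SLE, and 1 to 2 in MLE. They numbered 6 to 7 in SLE-sham and 4 to 6 in MLE-sham against ENT-sham, and 0 to 0 in MLE-sham against SLE-sham. They numbered 2 to 4 in SLE-BDL and 5 to 7 in MLE-BDL against ENT-BDL, and 0 to 3 in MLE-BDL against SLE-BDL. For the interactions they numbered 0 to 1 for SLE and ENT, 0 to 0 for MLE and ENT, and 0 to 1 for MLE and SLE. Of 2700 values without a pig, 56 changed sign, none of them called. CYP2C32 ranged from -0.26 to 0.69 after BDL in ENT, and CYP2C42 from -0.0309 to 0.26 after BDL in MLE. In MLE-sham against SLE-sham, CYP2E1 ranged from -0.10 to 0.41, CYP2C32 from -0.57 to 3.14, and CYP2C36 from -0.27 to 1.29. CYP2B22 ranged from -0.29 to 0.77 in MLE-BDL against SLE-BDL. In the interaction of SLE and ENT, CYP2C33 ranged from -0.23 to 0.0828. In that of MLE and ENT, CYP2A19 ranged from -0.26 to 1.37, CYP2B22 from -0.59 to 0.51, CYP2C33 from -0.28 to 0.0483, and CYP2D25 from -0.16 to 0.18. In that of MLE and SLE, CYP2A19 ranged from -0.81 to 0.12 and CYP2C33 from -0.22 to 0.10.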
